A study of Rattus norvegicus with 6 samples.

Results

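The genes described here are the glucose transporters, the enzymes of glycolysis, the proteins that handle its end products, and genes known to be induced at low oxygen through hypoxia-inducible factors. They were taken from a list of 35 gene symbols, of which 34 had a named probe set on the array, out of 15037 genes measured in all. The exception was the oxygen-sensing prolyl hydroxylase Egln1, which had no named probe set and was not analysed here. The rule goes by gene symbol and uses no measured value, but the list was chosen with earlier results of these data known. Each of the 34 genes had a single probe set, so no choice between probe sets was needed.

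Airway basal cells, the stem cells of the tracheal lining, were scraped from the tracheas of Sprague Dawley rats, all male, wild type and 12 weeks old. 3 lines were made, each pooled from 3 rats, and every line was divided at isolation between EpiX and BEGM, both of them media for growing epithelial cells, with BEGM made for bronchial epithelium. RNA was taken on day 8 and hybridised to 6 arrays, 3 for EpiX and 3 for BEGM, and the labels name no difference in oxygen between the cultures. Because each line mixes the cells of several rats, the spread between arrays is one between pools and not between animals.

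Glycolysis splits glucose into pyruvate and yields ATP without oxygen, and lactate dehydrogenase then turns pyruvate into lactate, which leaves the cell through monocarboxylate transporters. Hypoxia-inducible factor is a pair of subunits of which the alpha subunit (Hif1a or Epas1) is marked for destruction by prolyl hydroxylases while oxygen is present. At low oxygen the alpha subunit persists and raises the transcription of most genes of glycolysis, together with genes of blood vessel growth, pH control and mitochondrial turnover. The factor is controlled mostly at the level of its protein, which arrays do not measure, and growth signals can also raise its targets.

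On the first principal component of all genes, the EpiX arrays scored 53.9, 47.1 and 34.2, against -7.24, -54.8 and -73.2 for BEGM arrays 1, 2 and 3, so BEGM array 1 lay between the EpiX arrays and the other BEGM arrays. The basal cell transcription factor Tp63 was at 14.71, 14.62 and 14.80 on EpiX arrays 1, 2 and 3, against 12.93, 12.53 and 12.23 on the BEGM arrays, and the basal keratin Krt14 lay between 16.38 and 17.13 on every array. Of 6 leukocyte markers 5 were measured and 0 were called, with a list mean of 5.44 to 5.79 in EpiX and 5.28 to 5.51 in BEGM. Among them Ptprc was at 3.78 to 4.08 in EpiX and 4.01 to 4.14 in BEGM, and Cd68 at 9.17 to 11.36 in EpiX and 8.65 to 10.22 in BEGM. Of 7 fibroblast markers 6 were measured and 0 were called, and their mean level was 5.58 to 5.80 on the EpiX arrays, against 6.52, 7.28 and 9.87 on BEGM arrays 1, 2 and 3. Of 4 smooth muscle markers 2, Cnn1 (-7.00 ± 0.74) and Acta2 (-2.91 ± 0.36), were lower in EpiX by the test described for the genes of interest. Myh11 was dim, at 4.13 to 4.34 in EpiX and 4.14 to 4.66 in BEGM. Des was dim too, at 4.09 to 4.25 in EpiX and 4.24 to 4.87 in BEGM, and neither passed. The list mean of these markers was 5.80 to 6.01 in EpiX and 7.81 to 8.86 in BEGM, and 0 of 5 endothelial markers were called. Of 9 basal cell markers 4 were higher, 1 (Pdpn) was lower (-2.96 ± 0.21) and 4, Krt14 among them, did not pass. Of 9 measured mitosis genes, 7 were higher in EpiX, with a list mean of 12.28 to 12.59 on the EpiX arrays and 11.23 to 11.44 on the BEGM arrays. In such bulk samples, fewer cells of a type and less RNA per cell cannot be told apart.

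Across the 34 genes, 6 rose in EpiX and 0 fell. The risers were Hk2, the hexokinase that begins glycolysis, Pdk1, a kinase that keeps pyruvate from being burned in mitochondria, the lactate and pyruvate transporter Slc16a1, the oxygen-regulated subunit Hif1a, the vessel growth factor Vegfa and the vasodilator peptide Adm. Their differences ranged from 0.82 for Vegfa to 3.06 for Adm, while 13 of the 14 enzymes from hexokinase to pyruvate kinase did not pass. All values are the authors' log2 signals, read as base 2, so that a difference of 1 is a doubling. Differences are EpiX minus BEGM with their standard error (SE, n = 3 per medium), and a gene was called by limma at a Benjamini-Hochberg adjusted p under 0.05 over all 15037 genes. Of all genes, 2.63% were called higher and 3.15% lower in EpiX, 5.78% together. The 6 of 34 higher is a larger share than that background, and 0 lower is near what 3.15% of 34 would give. Because the list was chosen with earlier results of these data known, these shares are a description and not a test. The median difference over the 34 genes was 0.27, against 0.0022 over all genes. The part of the 7 mitosis genes and 4 basal markers called higher in EpiX in these rises was not tested. The alternative fit that takes the sample number as a block is given beside the genes whose call it changed, since the lines were divided between the media.

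**Figure D1:**
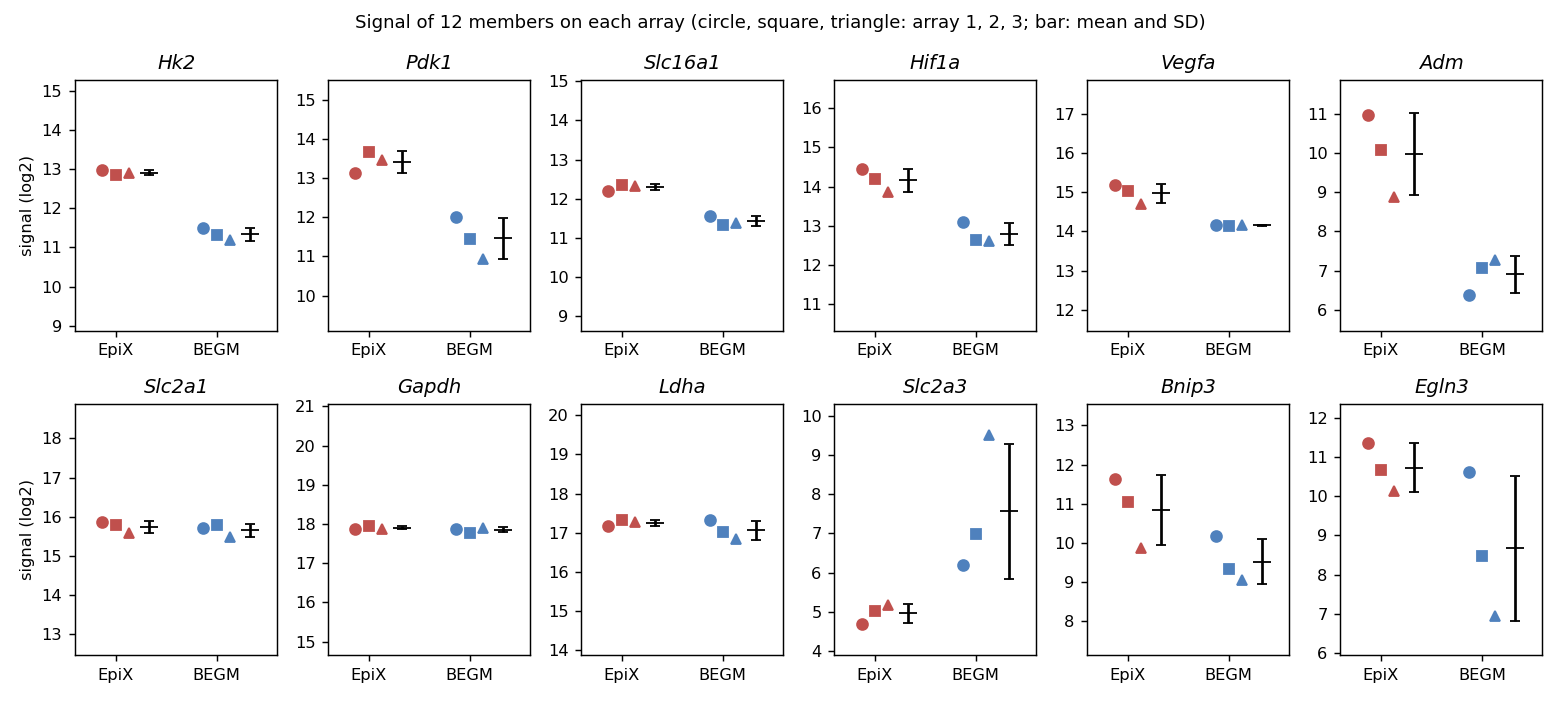
Log2 signal (vertical axes, each spanning the same number of log2 units) of 12 genes on the 3 EpiX arrays (red) and the 3 BEGM arrays (blue), with circle, square and triangle for arrays 1, 2 and 3 and a black bar for mean and SD. The upper row holds the 6 genes that rose in EpiX, where no EpiX point overlaps a BEGM point; in the lower row Gapdh stays between 17.77 and 17.94 on all 6 arrays, while Slc2a3 reaches 9.50 on BEGM array 3.

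Glucose enters epithelial cells mainly through Slc2a1 (GLUT1), and Slc2a3 (GLUT3) is a high-affinity transporter best known from neurons. Slc2a1 was at 15.88, 15.78 and 15.58 on EpiX arrays 1, 2 and 3, against 15.72, 15.78 and 15.47 on the BEGM arrays. The media overlapped, and the difference of 0.09 ± 0.16 was within the spread between arrays (adjusted p = 0.805, 95% interval -0.29 to 0.46). Slc2a3 was at 4.70, 5.02 and 5.17 on EpiX arrays 1, 2 and 3, against 6.20, 6.996 and 9.50 on the BEGM arrays. All EpiX arrays lay below all BEGM arrays, but the BEGM values were far apart, and the difference of -2.61 ± 0.77 did not pass (adjusted p = 0.104). It passed in the fit blocked by number (adjusted p = 0.0471), but not with number as a random block at its estimated correlation of 0.13 (adjusted p = 0.0715), in a range from 0.0194 to 0.493 over the alternatives. Without BEGM array 3 the difference was -1.64 ± 0.28 (adjusted p = 0.0359). Slc2a3 was highest on BEGM array 3, the array with the highest fibroblast marker level, and the part of those markers in the result was not tested.

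Hexokinases trap glucose by phosphorylation. Hk2, the hypoxia-inducible form, was at 12.97, 12.85 and 12.89 on EpiX arrays 1, 2 and 3, against 11.51, 11.32 and 11.19 on BEGM arrays. The values within each medium lay close together and the media did not overlap, a rise of 1.57 ± 0.14 or 2.96-fold (adjusted p = 0.00408). The constitutive form Hk1 was at 12.58, 12.68 and 13.07 on EpiX arrays 1, 2 and 3, against 12.28, 12.06 and 12.83 on the BEGM arrays. It overlapped between the media and differed by 0.39 ± 0.24 (adjusted p = 0.406). The gap between the changes of both hexokinases was not itself tested.

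The steps that follow did not pass the test at any enzyme. Gpi, which turns glucose 6-phosphate into fructose 6-phosphate, differed by 0.16 ± 0.16. Of the phosphofructokinase subunits, which catalyse the committed step, Pfkl differed by 0.32 ± 0.18, Pfkp by 0.50 ± 0.23 and the muscle form Pfkm by -0.09 ± 0.16. Pfkl was higher on every EpiX array than on any BEGM array, and the other subunits overlapped. Aldoa, the aldolase that splits the sugar, differed by -0.20 ± 0.13 with all EpiX arrays below all BEGM arrays, at 16.73, 16.60 and 16.48 on EpiX arrays 1, 2 and 3, against 16.80, 16.84 and 16.77 on the BEGM arrays. Tpi1, which interconverts the resulting trioses, differed by 0.12 ± 0.24.

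Gapdh, the dehydrogenase often used as a loading reference, was at 17.88, 17.94 and 17.88 on EpiX arrays 1, 2 and 3, against 17.88, 17.77 and 17.90 on the BEGM arrays. Its range over all 6 arrays was narrow, with a difference of 0.05 ± 0.13 (adjusted p = 0.873, 95% interval -0.25 to 0.35). Pgk1, the first ATP-forming enzyme of the pathway, was at 16.11, 16.21 and 16.01 on EpiX arrays 1, 2 and 3, against 15.73, 15.45 and 15.57 on the BEGM arrays. All its EpiX arrays lay above all BEGM arrays, but its difference of 0.53 ± 0.14 did not pass (adjusted p = 0.0845). Its adjusted p was 0.0493 with a trended and robust variance and 0.0296 with array weights, within a range of 0.0296 to 0.543 over the alternatives.

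In lower glycolysis, the mutase Pgam1 differed by 0.01 ± 0.14, the enolase Eno1 by -0.02 ± 0.15 and the pyruvate kinase Pkm by 0.15 ± 0.15, each with overlapping media. The sign of Eno1 turned to 0.11 after median centring of the arrays. Eno2, the enolase of neurons and neuroendocrine cells, was at 4.74, 4.86 and 4.55 on EpiX arrays 1, 2 and 3, against 5.05, 5.60 and 7.58 on the BEGM arrays. It did not pass (-1.36 ± 0.60, adjusted p = 0.24), and without BEGM array 3 the difference was -0.61 ± 0.22 (adjusted p = 0.21). Gapdh, Eno1, Pkm and Ldha lay toward the top of the scale, which ended at 18.66 (Gapdh was at most 17.94). Whether such spots were saturated cannot be read from these values, and processed copies of these genes elsewhere in the genome may share their probes.

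Pfkfb3 and Pfkfb4 make and break down fructose 2,6-bisphosphate, the strongest activator of phosphofructokinase. Pfkfb3 was at 9.89, 9.53 and 8.73 on EpiX arrays 1, 2 and 3, against 9.09, 9.002 and 8.64 on the BEGM arrays. The media overlapped, with a difference of 0.47 ± 0.31 (adjusted p = 0.424). Pfkfb4 differed by -0.44 ± 0.23, in the other direction, and did not pass either.

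Of the 5 genes that handle pyruvate and lactate, 2 rose. Pdk1, which phosphorylates and silences pyruvate dehydrogenase, was at 13.12, 13.67 and 13.45 on EpiX arrays 1, 2 and 3, against 12.01, 11.43 and 10.94 on the BEGM arrays. Every EpiX array lay above every BEGM array, a rise of 1.95 ± 0.29 or 3.88-fold (adjusted p = 0.0151). Ldha, the lactate dehydrogenase subunit favoured in glycolytic cells, was at 17.17, 17.33 and 17.27 on EpiX arrays 1, 2 and 3, against 17.33, 17.02 and 16.84 on the BEGM arrays. Its highest value was on BEGM array 1 and the media overlapped (0.19 ± 0.17, adjusted p = 0.559). Ldhb, the subunit favoured in oxidative tissue, differed by 0.54 ± 0.39 and was lowest on EpiX array 3, at 9.81.

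The transporters that carry lactate across the membrane, Slc16a1 (MCT1) and Slc16a3 (MCT4), lay on opposite sides. Slc16a1 was at 12.20, 12.35 and 12.33 on EpiX arrays 1, 2 and 3, against 11.57, 11.33 and 11.40 on the BEGM arrays. The arrays of each medium were tightly grouped and did not overlap, a rise of 0.86 ± 0.14 or 1.81-fold (adjusted p = 0.0192). Slc16a3, known as the hypoxia-inducible exporter, was at 10.93, 11.61 and 11.36 on EpiX arrays 1, 2 and 3, against 12.43, 13.25 and 11.92 on the BEGM arrays. All EpiX arrays were below all BEGM arrays, but the difference of -1.23 ± 0.35 did not pass (adjusted p = 0.0944). It passed in the fit blocked by number (adjusted p = 0.0434), the lowest of a range up to 0.383 over the alternatives, but not with the random block (adjusted p = 0.0636).

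**Figure D2:**
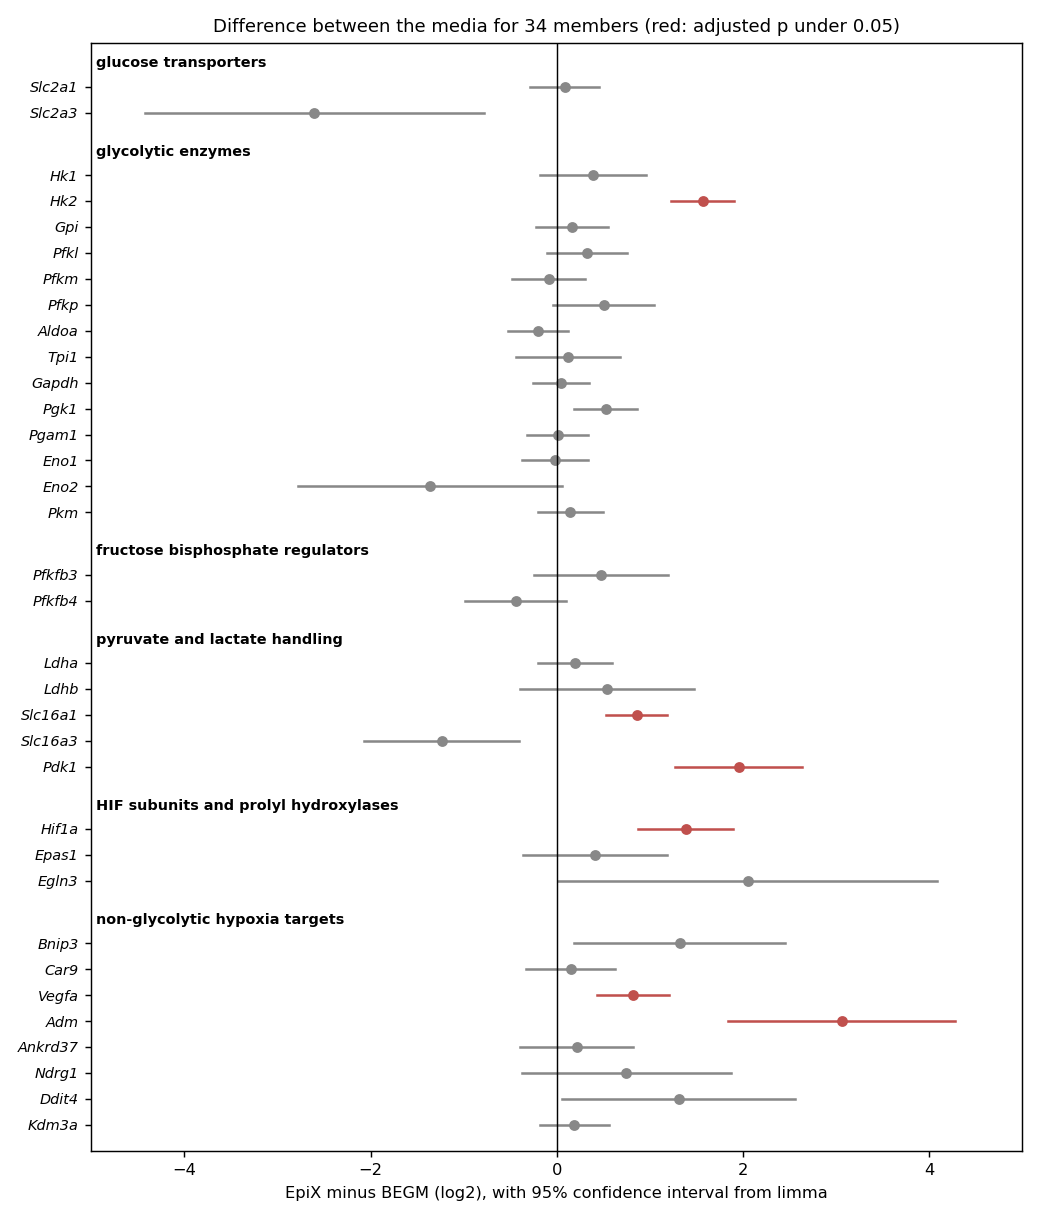
Difference between EpiX and BEGM on the log2 scale (horizontal axis) for each of the 34 genes, ordered by role, with 95% confidence intervals from the fit that are not adjusted for the number of genes. Red marks the 6 genes called higher, from Hk2 to Adm. Most glycolytic enzymes sit within 0.5 of 0, while all 8 non-glycolytic hypoxia targets of the list sit to the right of 0. The 27 other hypoxia targets, with a median of -0.23, are not drawn.

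Next come the alpha subunits of the factor and the prolyl hydroxylase Egln3. Hif1a was at 14.44, 14.19 and 13.86 on EpiX arrays 1, 2 and 3, against 13.11, 12.62 and 12.61 on the BEGM arrays. Every EpiX array was above every BEGM array, a rise of 1.38 ± 0.22 or 2.61-fold (adjusted p = 0.0175). Epas1, which encodes the related subunit HIF-2 alpha, was at 15.72, 15.26 and 14.56 on EpiX arrays 1, 2 and 3, against 15.15, 14.74 and 14.42 on the BEGM arrays. It overlapped between the media, with a difference of 0.41 ± 0.33 (adjusted p = 0.526). Egln3, a prolyl hydroxylase that is itself a target of the factor, was at 11.37, 10.67 and 10.12 on EpiX arrays 1, 2 and 3, against 10.61, 8.47 and 6.93 on the BEGM arrays. BEGM array 1 lay among the EpiX arrays while BEGM array 3 was low, and the difference of 2.05 ± 0.86 did not pass (adjusted p = 0.22). Without BEGM array 1 it was 3.02 ± 0.51 and passed (adjusted p = 0.0117), and without BEGM array 3 it was 1.18 ± 0.65 (adjusted p = 0.403), within a range up to 0.667 over the alternatives.

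The 8 hypoxia targets outside glycolysis all had differences above 0, and 2 of them rose. Adm, adrenomedullin, was at 10.96, 10.07 and 8.87 on EpiX arrays 1, 2 and 3, against 6.38, 7.05 and 7.28 on the BEGM arrays. The EpiX arrays were widely spread yet all above the BEGM arrays, a rise of 3.06 ± 0.51 or 8.34-fold (adjusted p = 0.0215). Vegfa was at 15.20, 15.02 and 14.71 on EpiX arrays 1, 2 and 3, against 14.16, 14.15 and 14.17 on the BEGM arrays. The BEGM arrays were nearly level and all EpiX arrays exceeded them, a rise of 0.82 ± 0.16 or 1.76-fold (adjusted p = 0.036).

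Bnip3, which marks mitochondria for removal, was at 11.62, 11.04 and 9.87 on EpiX arrays 1, 2 and 3, against 10.17, 9.34 and 9.07 on the BEGM arrays. EpiX array 3 lay among the BEGM arrays, and the difference of 1.32 ± 0.48 did not pass (adjusted p = 0.164). Ddit4, an inhibitor of the growth kinase mTORC1, was at 13.62, 13.32 and 12.33 on EpiX arrays 1, 2 and 3, against 12.89, 11.37 and 11.09 on the BEGM arrays. EpiX array 3 again lay below BEGM array 1, with a difference of 1.31 ± 0.53 (adjusted p = 0.207). In the fit blocked by number Bnip3 passed (adjusted p = 0.0255, the lowest of a range up to 0.652) and so did Ddit4 (adjusted p = 0.0406, in a range from 0.0205 to 0.715). With the random block neither passed, at an adjusted p of 0.11 for Bnip3 and 0.143 for Ddit4.

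Ndrg1, a stress-responsive protein linked to differentiation, was at 13.95, 13.52 and 13.38 on EpiX arrays 1, 2 and 3, against 14.01, 12.49 and 12.11 on the BEGM arrays. BEGM array 1 had the highest value of all, and the difference of 0.75 ± 0.47 did not pass (adjusted p = 0.415). Without BEGM array 1 it was 1.32 ± 0.23 (adjusted p = 0.0125), and without BEGM array 3 it was 0.37 ± 0.44 (adjusted p = 0.726), in a range up to 0.807. Car9, the carbonic anhydrase widely used as a hypoxia marker, was at 5.60, 5.86 and 5.92 on EpiX arrays 1, 2 and 3, against 6.01, 5.38 and 5.54 on the BEGM arrays. The media overlapped (0.15 ± 0.20, adjusted p = 0.726). Kdm3a, a histone demethylase, differed by 0.19 ± 0.15, and Ankrd37, whose mean level was below 4.50 and so among the dimmest 25% of genes, by 0.21 ± 0.26.

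Set side by side, the median difference was 0.13 over the 14 glycolytic enzymes, of which 1 rose, and 0.78 over the 8 non-glycolytic hypoxia targets, of which 2 rose. Over all genes the median was 0.0022. Of the enzymes, 10 differed by less than 0.5 in either direction, as did 3 of the hypoxia targets. The mean level of the enzymes was 13.80, 13.91 and 13.96 on EpiX arrays 1, 2 and 3, against 13.69, 13.67 and 13.85 on the BEGM arrays. The mean level of the hypoxia targets was 10.63, 10.46 and 9.94 on the EpiX arrays, against 9.71, 9.26 and 9.14 on the BEGM arrays. For the hypoxia targets the media did not overlap, and for the enzymes EpiX array 1 lay below BEGM array 3. Median centring of the arrays moved the median of all genes to 0.13 and that of the enzymes to 0.26. The difference between the enzymes and these hypoxia targets was described only and not tested. The 27 other hypoxia targets taken up below lay on the other side, with a median of -0.23, 18 of them below 0 and 9 above.

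**Figure D3:**
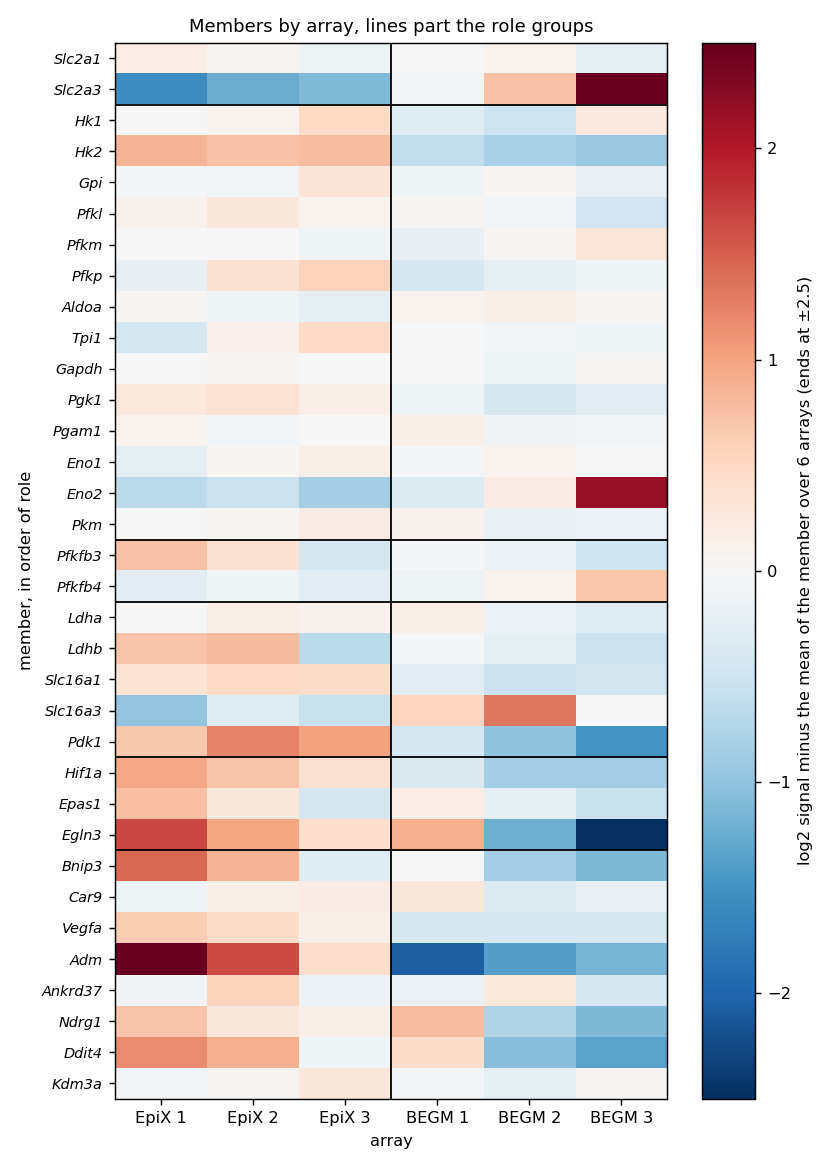
Log2 signal of each of the 34 genes (rows, in order of role, parted by lines) on each array (columns, EpiX left of BEGM), minus the gene's mean over the 6 arrays; red is above that mean and blue below, and colours end at 2.5 in either direction. Hk2, Slc16a1, Pdk1, Hif1a, Vegfa and Adm are red on all EpiX arrays and blue on all BEGM arrays, while Slc2a3 and Eno2 stand out on BEGM array 3.

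All EpiX arrays lay above all BEGM arrays for 8 of the 34 genes, against 13.5% of all genes, and below them for 4, against 14.5%. The 8 were the 6 risers with Pfkl and Pgk1, and the 4 were Slc2a3, Aldoa, Eno2 and Slc16a3. Comparing arrays of the same number, 17 genes were higher in EpiX in 3 of 3 pairs, against 23.3% of all genes, and 5 were lower in 3 of 3, against 23%. Among the 11 measured genes made up of Hif1a, Epas1, Egln3 and the hypoxia targets, 9 were higher in 3 of 3 pairs. Car9 and Ndrg1 were lower in EpiX at number 1. Genes higher in all pairs were thus commoner here than among all genes, and genes lower in all pairs less common. This was described and not tested, in a list chosen with earlier results of these data known.

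The size of the change was not the same in every pair. Adm differed by 4.58, 3.01 and 1.59 at numbers 1, 2 and 3, and Egln3 by 0.76, 2.20 and 3.19. Hk2 differed by 1.47, 1.53 and 1.71, and Hif1a by 1.34, 1.56 and 1.25. The 3 values lay close together for Hk2 and for Hif1a, and far apart for Adm and Egln3. For 9 of the 34 genes the array numbered 1 was the highest in both media, against 14.7% of all genes, and Hif1a, Epas1, Egln3, Bnip3, Ndrg1 and Ddit4 were among them. Of these 9, Hk2 and Hif1a were also called between the media and 7 were not.

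**Figure D4:**
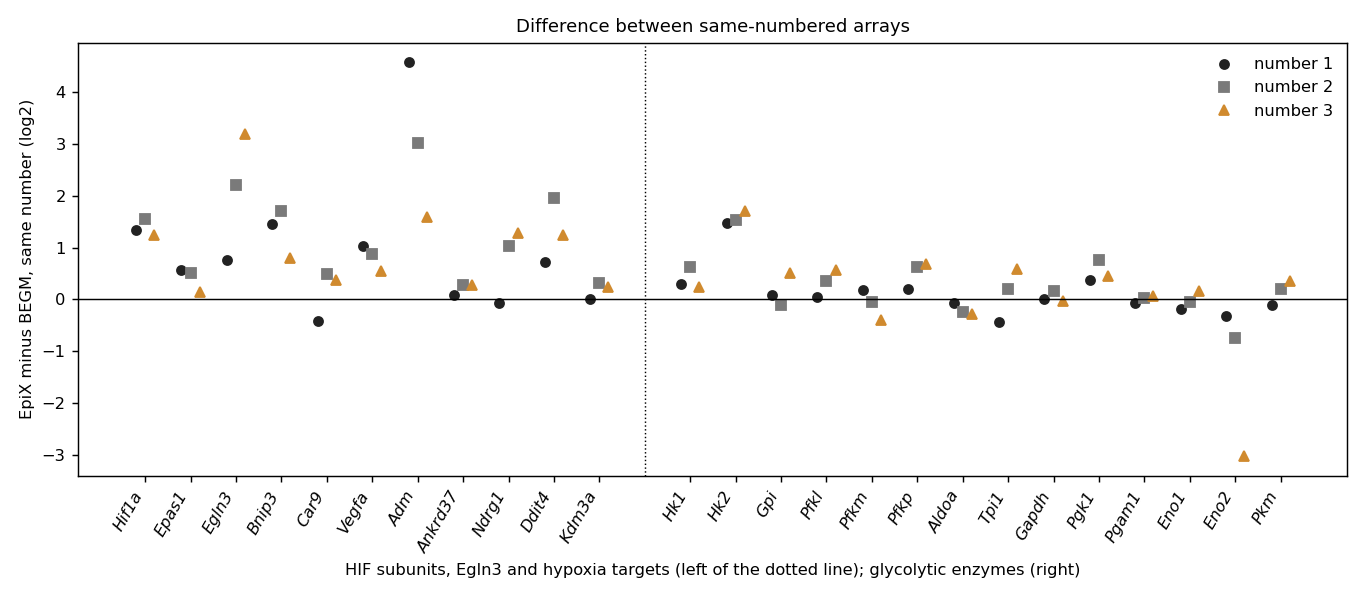
Difference between the EpiX and BEGM arrays of the same number (vertical axis, log2), with circle, square and triangle for numbers 1, 2 and 3. Hif1a, Epas1, Egln3 and the hypoxia targets are left of the dotted line and the glycolytic enzymes right of it. Hk2 and Hif1a have 3 close points above 0, Adm spans 1.59 to 4.58, Eno2 reaches -3.03 at number 3, and most other enzymes lie near 0.

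The calls depended on single arrays. How many of all genes were called changed between these fits as well, from 869 in the main fit, over a range given in the last section. The calls listed here are therefore not read as particular to these genes. Without BEGM array 1 all 6 risers were called, together with Egln3, Ndrg1 and Ddit4 as higher and Slc2a3 as lower. Without EpiX array 1, EpiX array 2 or BEGM array 2, Hk2 alone of the 34 genes was called. Without EpiX array 3 the calls were Hk2, Hif1a, Vegfa and Adm, and without BEGM array 3 they were Hk2, Pdk1, Hif1a and Adm as higher and Slc2a3 as lower. Without both arrays of number 1 they were Hk2, Slc16a1, Pdk1, Hif1a, Adm, Egln3, Ndrg1 and Ddit4, all higher, and without those of number 3, Hk2 and Adm. Without both arrays of number 2, limma called 0 of the 15037 genes, with 1582 at an unadjusted p under 0.05. Every alternative kept the 6 differences above 0, with Hk2 between 1.49 and 1.69 and Adm between 2.30 and 3.79.

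Promoters of the risers were read for the core of the hypoxia response element, the short DNA word that hypoxia-inducible factors bind, spelled ACGTG or GCGTG and searched on both strands of RefSeq windows (build GRCr8) from 250 bases before a gene's start to 50 after it. On the printed strand a core of the other strand reads CACGT or CACGC, and ACGTG overlaps CACGT within CACGTG, an E-box that Myc proteins also bind. Of the 34 genes 31 had a window, and 22 of these held a core in any of their windows. Of the 12435 tested genes with a window, 52.7% did. The median GC content was 63.3% over the windows of these genes and 58% over those of tested genes, and the part of GC content in these shares was not tested. Some genes had several windows, and so more places for a core. Counted by window, 62.2% of the 37 windows of these genes held a core. The share was 51.9% of the 12924 windows of tested genes and 41.6% of all windows. The windows of 5 of the 6 risers are shown, each with its core matches in capitals, and that of Ldha, which did not pass, for contrast.

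Pdk1, chr3:77113264-77113563, plus strand, has 4 matches, the nearest before the start at -54. Hif1a, chr6:98359648-98359947, plus strand, has 3, of which a pair share the E-box at -229. Slc16a1, chr2:194812410-194812709, plus strand, has 4, of which a pair share an E-box at -216 and 1 lies after the start.
Pdk1: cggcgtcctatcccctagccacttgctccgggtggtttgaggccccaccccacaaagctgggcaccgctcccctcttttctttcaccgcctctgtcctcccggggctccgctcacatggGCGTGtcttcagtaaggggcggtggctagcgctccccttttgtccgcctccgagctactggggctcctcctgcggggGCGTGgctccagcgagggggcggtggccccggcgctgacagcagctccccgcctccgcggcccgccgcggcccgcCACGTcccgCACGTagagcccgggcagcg
Hif1a: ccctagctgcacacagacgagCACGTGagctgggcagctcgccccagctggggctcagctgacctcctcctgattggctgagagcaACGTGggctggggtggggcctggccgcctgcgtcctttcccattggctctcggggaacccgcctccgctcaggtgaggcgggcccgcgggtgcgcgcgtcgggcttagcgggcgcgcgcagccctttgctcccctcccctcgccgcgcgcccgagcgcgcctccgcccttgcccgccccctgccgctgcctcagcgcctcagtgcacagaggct
Slc16a1: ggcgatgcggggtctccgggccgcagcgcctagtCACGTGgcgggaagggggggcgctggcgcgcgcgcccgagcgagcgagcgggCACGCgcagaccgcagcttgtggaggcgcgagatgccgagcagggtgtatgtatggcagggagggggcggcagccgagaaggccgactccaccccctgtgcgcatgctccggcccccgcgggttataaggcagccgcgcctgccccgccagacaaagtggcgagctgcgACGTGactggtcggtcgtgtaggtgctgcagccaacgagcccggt

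Hk2, chr4:116841226-116841525, minus strand, and Adm, chr1:174179950-174180249, plus strand, have 0 matches in this window, as do both windows of Vegfa. Ldha, chr1:106507842-106508141, plus strand, has 6, the most of these, of which a pair share an E-box at -87.
Hk2: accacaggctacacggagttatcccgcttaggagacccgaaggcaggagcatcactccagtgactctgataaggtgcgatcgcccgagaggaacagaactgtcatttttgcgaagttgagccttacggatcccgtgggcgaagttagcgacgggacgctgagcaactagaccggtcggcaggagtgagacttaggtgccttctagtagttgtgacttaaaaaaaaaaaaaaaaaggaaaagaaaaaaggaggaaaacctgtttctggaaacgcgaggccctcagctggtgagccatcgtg
Adm: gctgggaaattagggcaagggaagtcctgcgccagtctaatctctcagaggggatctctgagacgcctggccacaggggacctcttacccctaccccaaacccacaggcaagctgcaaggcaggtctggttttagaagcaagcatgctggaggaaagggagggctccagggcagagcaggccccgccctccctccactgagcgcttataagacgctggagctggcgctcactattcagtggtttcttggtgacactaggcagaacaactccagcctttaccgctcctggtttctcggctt
Ldha: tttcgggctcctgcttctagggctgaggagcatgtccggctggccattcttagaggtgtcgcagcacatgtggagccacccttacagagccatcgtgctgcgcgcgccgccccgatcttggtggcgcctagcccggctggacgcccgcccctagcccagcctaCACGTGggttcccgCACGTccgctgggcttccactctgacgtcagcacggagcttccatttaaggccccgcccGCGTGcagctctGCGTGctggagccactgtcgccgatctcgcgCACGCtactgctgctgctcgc

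Of the 6 risers, 3 thus held a core in this window and 3 did not, beside 22 of all 31 genes with a window. Ldha, with 6 matches the most of these 31 genes, differed by 0.19 between the media. It is 1 gene picked for contrast and does not stand for the others that did not pass. Whether cores went with the rises was not tested. A match is a run of letters and not a measured binding site, and cores outside the window were not searched.

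Of 122 related genes listed beside these, 104 were measured, and 5 rose and 6 fell. Of all genes, 2.63% were called higher and 3.15% lower. Single calls in the short lists that follow are described and not tested against those shares. Among 22 other genes of glycolysis, gluconeogenesis and sugar transport, Slc2a9, a urate and glucose carrier, rose by 1.17 ± 0.23 and the sodium-coupled glucose carrier Slc5a1 by 1.19 ± 0.18. The muscle enolase Eno3 fell, with a difference of -2.92 ± 0.54, and the median over the list was -0.02. Slc5a1 was dim in both media, at 4.59, 4.75 and 4.24 on EpiX arrays 1, 2 and 3, against 3.52, 3.32 and 3.17 on the BEGM arrays.

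Of 14 other genes around pyruvate, 1 rose and 1 fell. Pyruvate carboxylase, Pc, which feeds pyruvate into the tricarboxylic acid cycle as oxaloacetate, was at 10.34, 9.98 and 9.63 on EpiX arrays 1, 2 and 3, against 7.74, 7.36 and 6.79 on the BEGM arrays. The media lay far apart, a rise of 2.69 ± 0.29 (adjusted p = 0.00656). Pdk4, a starvation-induced relative of Pdk1, fell (-1.44 ± 0.30). It was dim in EpiX, at 3.92, 3.83 and 4.13 on arrays 1, 2 and 3, against 4.82, 6.04 and 5.35 on the BEGM arrays. Pdk2 (-0.76 ± 0.21) and Pdk3 (0.35 ± 0.15) did not pass. The 4 pyruvate dehydrogenase kinases were thus on both sides of 0.

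Among 27 other genes known as hypoxia targets, 1 rose and 3 fell, with a median of -0.23, on the other side of 0 from the 0.78 of the 8 described above. The carbonic anhydrase Car12 rose by 4.74 ± 0.34. The collagen-modifying enzyme Plod2 fell (-4.79 ± 0.75), as did Angptl4, an inhibitor of lipoprotein lipase (-4.15 ± 0.86), and the vasoconstrictor peptide Edn1 (-1.08 ± 0.16). Plod2 was at 6.36, 6.71 and 7.66 on EpiX arrays 1, 2 and 3, against 10.09, 11.83 and 13.18 on the BEGM arrays. It was highest on BEGM array 3, where fibroblast markers were also highest, and their part in the result was not tested. Of 12 other regulators of the factor, Cited2, which competes with it for a co-activator, fell (-1.93 ± 0.32) and 11 did not pass.

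In the tricarboxylic acid cycle list, 1 of 17 measured genes rose, the malate dehydrogenase Mdh1 (0.87 ± 0.19), whose product acts in the cytosol, and the median was 0.29. By limma, 0 of 5 measured pentose phosphate genes were called, with the largest difference at Rpia (0.77 ± 0.31, adjusted p = 0.198). Of 7 regulators that answer to glucose or drive glycolysis, 0 were called, the largest difference being that of the mitochondrial co-activator Ppargc1b (0.85 ± 0.21, adjusted p = 0.0643). Myc, which drives glycolytic genes in dividing cells, differed by 0.34 ± 0.15 and did not pass.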

How the data were processed

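Gene expression was measured on 6 Affymetrix-type arrays, 3 per medium, and the authors' deposited log2 values give 1 signal per probe set for 24834 probe sets. Labelling followed the Affymetrix protocol, per the labels' protocols. The Transcriptome Analysis Console is named in the submitters' processing notes. How the authors corrected background, normalized and centred, and the log base, is not stated in those sources. Base 2 was assumed from the range of values, 2.62 to 18.66. No scanner file or detection call was used, so no gene was called absent, and the number of arrays limits the precision.

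Probe sets were named through the platform annotation. The brightest with a gene symbol was kept for each of 15037 genes. All genes were fitted together with limma 3.58.1 in R 4.3.3 (lmFit, eBayes) with medium as the sole term, with no filter, and p-values are 2-sided. The fit was tested on simulated data.

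Sample numbers come from the source names, and same-numbered arrays were taken as one line, which the labels do not state. The titles give number 3 to both arrays called number 2 here, and no number to those called number 3. The block and all pair counts rest on this reading. Deviations of same-numbered arrays from their medium's means correlated at 0.32, -0.01 and 0.32 across genes for numbers 1, 2 and 3, and those of other numbers at -0.37 to 0.16. Deviations from a mean of 3 arrays cancel out within a medium, which ties these correlations to each other. They therefore cannot settle whether same-numbered arrays are one line. Nothing in the labels says more of how cultures were handled. The p-values set each difference against the spread between these samples, which may in part be technical. In the main fit that spread can also hold differences between lines.

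The members, the role groups and the lists of related genes were chosen with earlier results of these data known. By the rule for named genes, called genes and a few set in advance (Gapdh, Slc2a1, Hif1a, Vegfa, Ldha, Pdk1, Bnip3 and Car9) got the value on every array, as did the gene with the largest difference in a group without a call. Of each related list up to 4 called genes were named, or the 1 with the largest difference. Other genes are given so too where they were of interest after their values were seen. These were Hk1, Aldoa, Pgk1, Eno2, Slc16a3, Epas1, Egln3, Ddit4, Ndrg1, Slc5a1, Pc, Pdk4 and Plod2 on each array, and Pdk2, Pdk3 and Myc by difference.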

Additional observations from a re-analysis of the deposited data

How the results depend on the processing

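The alternatives were the number as a block or a random block, quantile normalization, median centring, array weights, a variance both trended and robust, dropping genes in the dimmest 25%, averaging probe sets per gene, and leaving out single arrays or both arrays of a number. Of the 6 rises, all stayed called under the settings that kept every array. With the replicate block, 8 genes of the list were called higher and 2 lower, Bnip3, Ddit4, Slc2a3 and Slc16a3 being the additions, and no other call of these genes changed. The count of all genes called in that fit is not set beside them, so the 4 additions cannot be read as particular to these genes. With the number as a random block, at an estimated correlation of 0.13, none of these 4 passed. With array weights 9 genes of the list were called higher (Pgk1, Bnip3 and Ddit4 added) and 1 lower (Slc2a3), and 1987 of all genes were called, against 869. Leaving out arrays moved the count of all genes called to between 0 and 2089, that of list genes called higher to between 0 and 9, and that called lower to between 0 and 1. The median difference of the enzymes was 0.26 with median centring and ran from 0.049 to 0.24 with arrays left out, and that of the hypoxia targets from 0.59 to 1.07. Signs turned for differences near 0: with median centring Pfkm was at 0.039 and Eno1 at 0.11. With arrays left out, the differences that crossed 0 ran as follows: Slc2a1 from -0.0072 to 0.17, Gpi from -0.0103 to 0.30, Pfkm from -0.23 to 0.069, Tpi1 from -0.12 to 0.40, Gapdh from -0.013 to 0.085, Pgam1 from -0.033 to 0.085, Eno1 from -0.11 to 0.084, Car9 from -0.014 to 0.43 and Ankrd37 from -0.0085 to 0.40. Fewer samples were tested when arrays were left out, and other causes of these shifts were not tested. The scale's base and normalization are unknown, and signal over background could not be judged for dim genes such as Ankrd37.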
